A study of Mus musculus with 20 samples.

Results

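The 10 genes described here were chosen by name as the neurofilament subunits (Nefl, Nefm, Nefh), microtubule genes of neurons (Tubb3, Map2, Mapt, Stmn2), the growth cone gene Gap43 and the microtubule motors Kif5c and Kif21b. This choice was made with earlier results of these data known. All 10 were found among the 46517 genes measured, and all 10 passed the filter on low counts in both tissues. Messenger RNA was sequenced in 20 mouse libraries from 4 groups. Zdhhc9 knockout corpus callosum (KO_CCg) gave 6 libraries and wild-type corpus callosum (WT_CCg) 5; Zdhhc9 knockout optic nerve (KO_ON) gave 5 and wild-type optic nerve (WT_ON) 4. The callosum is the tract that joins the hemispheres and was dissected from frozen brain sections, and the optic nerve carries the axons of the retina. Zdhhc9 encodes an enzyme that attaches palmitate to proteins; the labels say knockout, the series text says knockdown, and the sources used here do not give the allele, strain, sex or age of the mice. Nothing in the labels says which libraries came from separate animals, so p-values measure only the spread between these libraries.

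An axon is held open and supplied by neurofilaments and microtubules. Neurofilaments are ropes assembled from a light, a medium and a heavy chain, which set the calibre of the axon. Microtubules are hollow tubes of tubulin that serve as tracks for kinesin motors, with microtubule binding proteins such as tau to stabilise them. Most messenger RNA for these proteins lies in the neuron's cell body, and the cell bodies of callosal and optic nerve axons lie outside these tracts, in the cerebral cortex and the retina. The proteins of Gap43 and Stmn2 are known to carry palmitate, the modification that Zdhhc9 makes on its own substrates. In pieces of bulk tissue, fewer cells of a type and less RNA per cell cannot be told apart.

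Library totals of estimated counts ranged from 17333746 to 25028817 in KO_CCg, 15401130 to 25375187 in WT_CCg, 18837907 to 25866142 in KO_ON and 22299837 to 26095622 in WT_ON. Zdhhc9 itself averaged 49.6 ± 5.09 CPM (counts scaled to a common library total) in KO_CCg and 185 ± 17.4 CPM in WT_CCg, and 41.3 ± 7.28 CPM in KO_ON and 132 ± 12.3 CPM in WT_ON (SD, n = 6, 5, 5 and 4), and it fell in both tissues (log2 fold change -1.95 and -1.70, edgeR adjusted p = 1.8e-06 and 5.4e-04). A list of 10 neuron cell body and synapse markers varied widely between callosum libraries, with a summed level of 1142 to 5810 CPM in KO_CCg and 948 to 4046 CPM in WT_CCg, against 114 to 314 CPM in KO_ON and 97.9 to 226 CPM in WT_ON. Of that list Meg3 was listed at 0 in every library. The 6 retinal ganglion cell markers summed to 50.2 to 60.0 CPM in KO_ON and 38.8 to 58.4 CPM in WT_ON, and to 78.1 to 336 CPM in KO_CCg and 64.9 to 275 CPM in WT_CCg. Of these Pou4f1, Pou4f2 and Isl2 averaged under 1 CPM in every group, while Rbpms averaged 13.6 CPM in KO_ON, 13.4 CPM in WT_ON, 4.87 CPM in KO_CCg and 5.02 CPM in WT_CCg, and Thy1 28.6, 22.6, 236 and 158 CPM in the same groups. Markers of mature oligodendrocytes summed to 32480 to 61743 CPM in KO_CCg, 51670 to 78253 CPM in WT_CCg, 52150 to 79945 CPM in KO_ON and 73175 to 84025 CPM in WT_ON. KO_ON_719856 stood apart with photoreceptor markers at 63.3 CPM, against 7.83 to 13.3 CPM in the other libraries.

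The promoters of only 3 of the 10 genes could be matched in the RefSeq table of build GRCm38.p6, and these 3 are shown. Whether the sequences bear on the levels was not tested. Kif5c was nearly constant in callosum and far lower in nerve, Tubb3 differed less between the tissues, by more in knockout than in wild-type mice on average, and Map2 varied with the neuron markers. Each window runs 5′ to 3′ on the plus strand from 250 bases before to 50 bases after the start, at chr2:49619036-49619335 for Kif5c, chr8:123411303-123411602 for Tubb3 and chr1:66175079-66175378 for Map2. Capitals mark the GC box GGGCGG as read on the plus strand.
Kif5c promoter: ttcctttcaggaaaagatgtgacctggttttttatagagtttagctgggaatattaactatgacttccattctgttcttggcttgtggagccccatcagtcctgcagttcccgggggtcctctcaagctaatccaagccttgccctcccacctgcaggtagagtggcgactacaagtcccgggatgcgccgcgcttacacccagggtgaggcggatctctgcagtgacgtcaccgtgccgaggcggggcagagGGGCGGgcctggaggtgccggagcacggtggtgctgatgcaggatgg
Tubb3 promoter: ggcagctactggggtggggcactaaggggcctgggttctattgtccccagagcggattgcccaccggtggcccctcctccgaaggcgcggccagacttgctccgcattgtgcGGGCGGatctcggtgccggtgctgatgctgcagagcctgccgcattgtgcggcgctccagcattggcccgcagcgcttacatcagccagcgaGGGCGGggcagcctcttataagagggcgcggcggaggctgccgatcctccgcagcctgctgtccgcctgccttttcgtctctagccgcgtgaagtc
Map2 promoter: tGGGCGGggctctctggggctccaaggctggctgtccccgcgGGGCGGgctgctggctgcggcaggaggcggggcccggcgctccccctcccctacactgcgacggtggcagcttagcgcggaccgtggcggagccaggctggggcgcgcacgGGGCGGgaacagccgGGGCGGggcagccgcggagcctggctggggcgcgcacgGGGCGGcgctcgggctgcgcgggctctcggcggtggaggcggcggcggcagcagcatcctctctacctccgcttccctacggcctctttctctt
The Map2 window was the richest in G and C at 77.7%, with 37 CpG pairs, followed by Tubb3 at 67.3% with 26 and Kif5c at 58.0% with 14; the median of the table's promoters was 52.7%. A search of both strands found 5 GC boxes (GGGCGG) in Map2, 2 in Tubb3 and 1 in Kif5c, and 1 TATA motif (TATAAA), in Kif5c. That TATA match is on the minus strand, reads TTTATA near the 5′ end of the printed window, and is not marked. Of all 32851 promoters of this length, 35.7% held the GC box and 13.6% the TATA motif. These matches are descriptions of the windows only.

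Per length, the levels of the genes kept nearly the same order in both genotypes. As CPM per kb of exon, Kif5c, a heavy chain of the conventional kinesin of neurons, was highest in callosum at 147 ± 7.04 in KO_CCg and 147 ± 11.8 in WT_CCg. Mapt, which encodes tau and is also made by oligodendrocytes, came after it at 114 ± 10.1 in KO_CCg and 119 ± 8.0 in WT_CCg. Then followed Tubb3, the neuronal beta tubulin, at 99.4 ± 15.3 and 83.2 ± 16.2, and Gap43 at 87.5 ± 32.0 and 61.8 ± 31.6 CPM per kb in KO_CCg and WT_CCg. Map2, a microtubule binding protein of dendrites and cell bodies, and Nefl could not be ranked against each other, with 37.2 ± 10.8 and 36.9 ± 11.3 CPM per kb in KO_CCg and 23.9 ± 6.69 and 22.9 ± 10.4 CPM per kb in WT_CCg. Stmn2, a tubulin binding protein of growing axons, had 26 ± 8.77 CPM per kb in KO_CCg and 18 ± 7.35 CPM per kb in WT_CCg. Kif21b, a kinesin that also restrains microtubule growth, had 15.9 ± 1.90 and 12.5 ± 2.46 CPM per kb, Nefm 9.20 ± 2.62 and 5.53 ± 2.33, and Nefh 3.76 ± 1.66 and 2.33 ± 1.11, in KO_CCg and WT_CCg.

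In optic nerve the order was led by Mapt, at 91.0 ± 6.62 CPM per kb in KO_ON and 86.2 ± 6.49 CPM per kb in WT_ON. Tubb3 came next at 53.0 ± 7.81 CPM per kb in KO_ON and 73.5 ± 7.12 CPM per kb in WT_ON, then Gap43 at 22.6 ± 3.11 and 21.3 ± 4.94. Kif5c, the highest of the 10 in callosum, came after Gap43, at 12.9 ± 1.75 CPM per kb in KO_ON and 13.4 ± 1.61 CPM per kb in WT_ON. In WT_ON Map2, Nefl and Kif21b lay within their spread of each other, at 5.73 ± 1.52, 5.27 ± 0.864 and 5.10 ± 0.810 CPM per kb, whereas in KO_ON Kif21b had 8.16 ± 0.749 CPM per kb, against 6.44 ± 0.903 for Nefl and 5.61 ± 1.33 for Map2. The lowest were Nefh, Stmn2 and Nefm, at 1.76 ± 0.587, 1.54 ± 0.699 and 1.04 ± 0.596 CPM per kb in KO_ON and 1.15 ± 0.268, 1.64 ± 1.18 and 0.670 ± 0.197 CPM per kb in WT_ON.

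**Figure D1:**
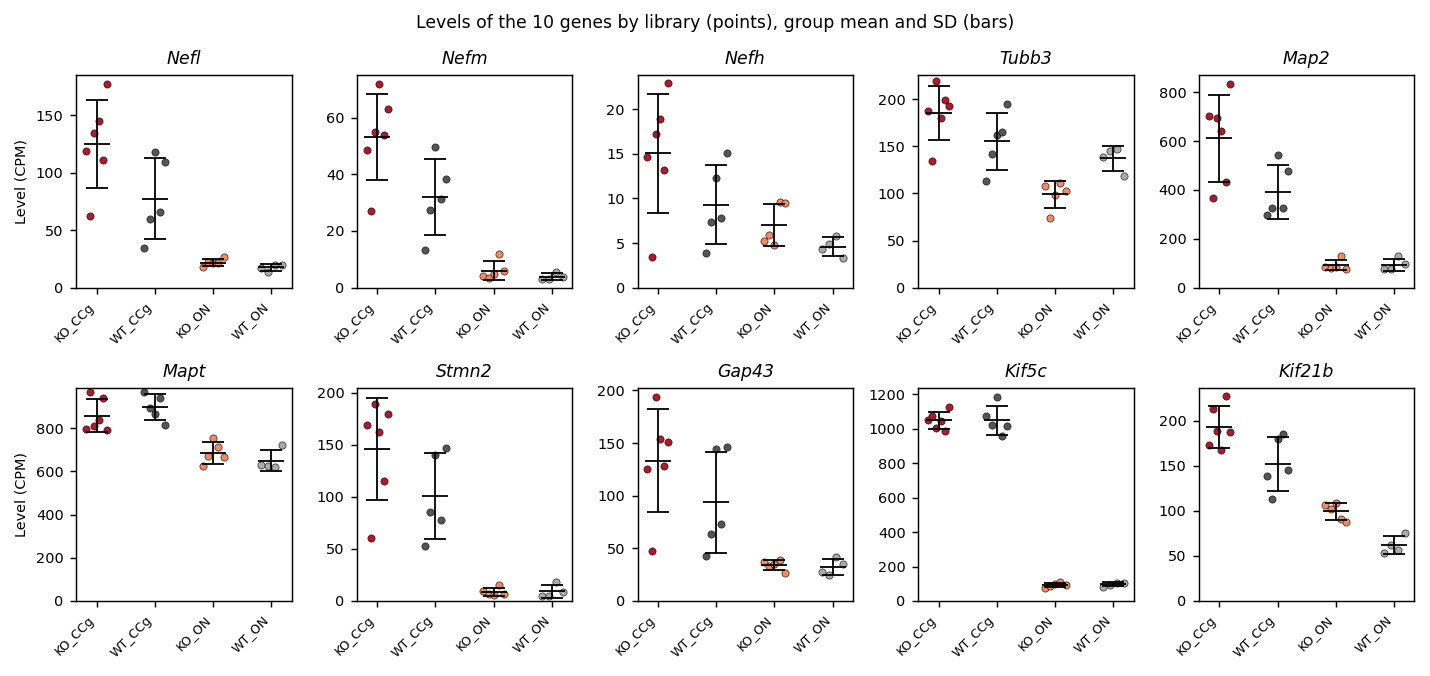
Level in CPM of each of the 10 genes in every library (points), by group, with the group mean and SD (bars); each panel has its own linear axis from 0. Mapt stays between 793 and 969 CPM in callosum, Kif5c is far lower in nerve than in callosum in both genotypes, and only Tubb3 and Kif21b have knockout and wild-type nerve points that do not overlap.

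Neurofilament messages were higher on average in knockout than in wild-type callosum, but none of the 3 passed the test. Nefl had a lowest, median and highest level of 62.5, 127 and 177 CPM in KO_CCg, against 34.4, 59.3, 118, 65.9 and 109 CPM in WT_CCg. The groups overlapped, with 4 of 6 knockout libraries above every wild-type library, and the log2 fold change of knockout over wild type was 0.65 ± 0.30 (SE; edgeR quasi-likelihood test with Benjamini-Hochberg adjustment, adjusted p = 0.426). Nefm, whose chain bridges neighbouring filaments with a long tail, ran from 27.1 through a median of 54.3 to 71.7 CPM in KO_CCg and measured 13.3, 27.3, 49.6, 31.4 and 38.4 CPM in WT_CCg (log2 fold change 0.70 ± 0.29, SE, adjusted p = 0.403). Again 4 of 6 knockout libraries lay above every wild-type library. Nefh, the heavy chain, had 3.40, 15.9 and 22.9 CPM as lowest, median and highest in KO_CCg, and 3.90, 7.32, 12.3, 7.80 and 15.1 CPM in WT_CCg (log2 fold change 0.65 ± 0.40, SE, adjusted p = 0.522). For this gene 3 knockout libraries were above and 1 was below all wild-type libraries. The exons of Nefl (chr14:68083863-68089095, plus strand) and Nefm (chr14:68082590-68124846, minus strand; both GRCm38) share 1108 bases on opposite strands, and the sources used here do not say whether the counting used strand.

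Among the microtubule genes of callosum, Map2 had the lowest adjusted p, 0.383, with 366, 668 and 834 CPM as lowest, median and highest in KO_CCg, and 296, 324, 543, 324 and 477 CPM in WT_CCg (log2 fold change 0.59 ± 0.22, SE). Stmn2 ran from 60.2 through 165 to 189 CPM in KO_CCg and measured 52.4, 85.9, 140.5, 77.6 and 147 CPM in WT_CCg (log2 fold change 0.49 ± 0.30, SE, adjusted p = 0.516). In both genes 4 of 6 knockout libraries exceeded every wild-type library while the other two lay among them. Tubb3 differed less, averaging 186 ± 28.5 CPM in KO_CCg and 155 ± 30.3 CPM in WT_CCg (SD; log2 fold change 0.21 ± 0.14, SE, adjusted p = 0.535). Mapt was the only microtubule gene of the 4 below 0, averaging 858 ± 75.9 CPM in KO_CCg and 898 ± 60.2 CPM in WT_CCg (SD; log2 fold change -0.11 ± 0.10, SE, adjusted p = 0.648).

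Gap43, which marks growing axon tips and persists in some adult neurons, had 47.2, 139.6 and 194 CPM as lowest, median and highest in KO_CCg, against 42.5, 63.9, 144, 73.2 and 146 CPM in WT_CCg (log2 fold change 0.47 ± 0.35, SE, adjusted p = 0.593). Both groups spanned most of the same range, with 3 knockout libraries above all wild-type libraries, and its log2 fold change was 0.29 without WT_CCg_28 and 0.69 without WT_CCg_7198587. Kif5c was close in both groups, at 1048 ± 50.3 CPM in KO_CCg and 1050 ± 84.6 CPM in WT_CCg (SD; log2 fold change -0.05 ± 0.09, SE, adjusted p = 0.825). Kif21b had 168, 189 and 228 CPM as lowest, median and highest in KO_CCg, and 139, 113, 179.8, 185 and 146 CPM in WT_CCg (log2 fold change 0.30 ± 0.13, SE, adjusted p = 0.419). Of its 6 knockout libraries 4 lay above every wild-type library.

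Over the 10 genes, 0 passed in callosum, where the share over all genes was 0.0387% (6 of 15519). Without adjustment 1816 genes had a p under 0.05, among them Nefl, Nefm, Map2 and Kif21b, and DESeq2 called 175 genes and 0 of the 10. Of the 10 fold changes 8 were above 0, with a median log2 fold change of 0.48 beside -0.013 over all genes tested. Of the 10, 0 had groups that did not overlap, beside 0.863% of all genes.

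Between callosum libraries most of these genes varied beside the neuron markers, and the values are given as a description. In order of rising neuron marker sum the libraries were WT_CCg_28 (948 CPM), KO_CCg_29 (1142), WT_CCg_30 (1865), WT_CCg_717652 (2035), KO_CCg_27 (3393), WT_CCg_7198587 (3619), KO_CCg_717651 (3624), WT_CCg_685232 (4046), KO_CCg_693451 (4862), KO_CCg_693452 (5026) and KO_CCg_719856 (5810 CPM). Taken in that order, Nefl measured 34.4, 62.5, 59.3, 65.9, 119, 109, 111, 118, 134, 145 and 177 CPM, so that it climbed with the markers in libraries of both genotypes. Stmn2 measured 52.4, 60.2, 85.9, 77.6, 169, 147, 115, 140.5, 189, 162 and 179.9 CPM in the same order, again low at the low end and high at the high end. Kif5c, at 1072, 1076, 1023, 957, 1053, 1014, 984, 1182, 1006, 1045 and 1125 CPM, showed no such order. Mapt ran the other way, at 969, 967, 896, 942, 799, 817, 941, 865, 812, 838 and 793 CPM. The ratio of the highest to the lowest callosum library was 6.72 for Nefh, 5.41 for Nefm, 5.13 for Nefl, 4.56 for Gap43 and 3.60 for Stmn2, and 1.24 for Kif5c and 1.22 for Mapt, beside a median of 1.77 over 15382 genes.

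**Figure D2:**
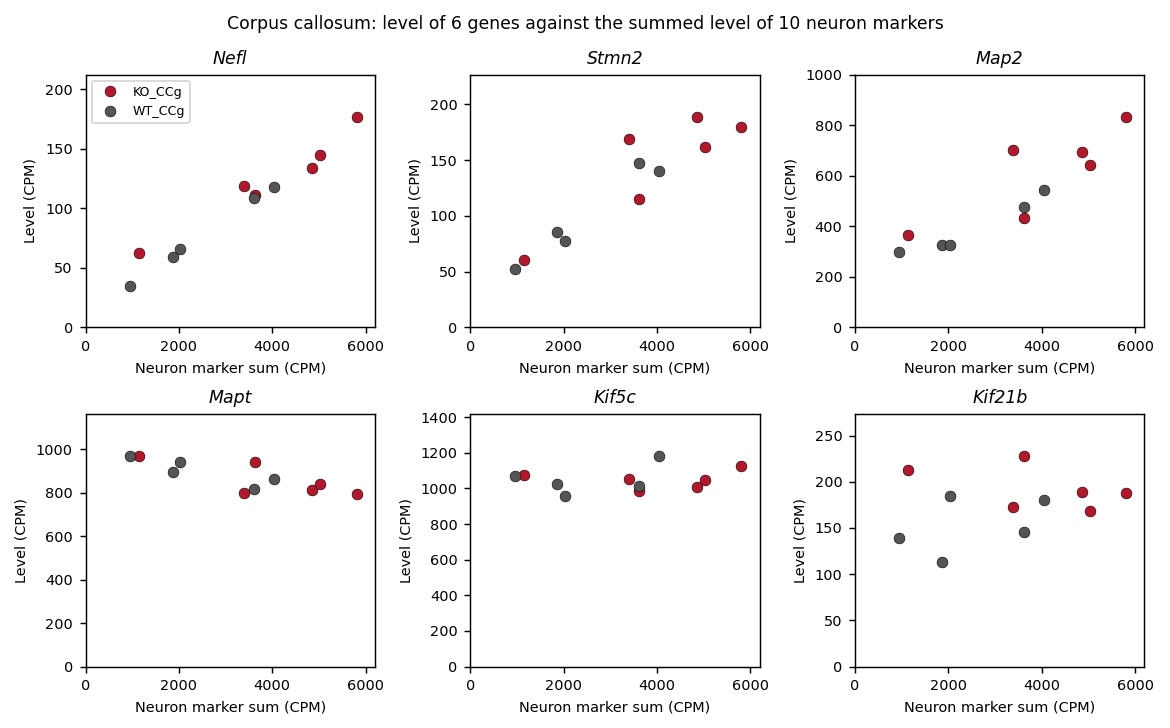
Level of 6 of the genes (CPM, y axis) against the summed level of the neuron marker list (CPM, x axis) in the 11 callosum libraries, coloured by genotype, on linear axes from 0. Nefl, Stmn2 and Map2 climb along the x axis in both genotypes, Kif5c and Kif21b do not, and Mapt is slightly lower towards the right.

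The genes whose level was most like the mean of the 10 over the 11 callosum libraries included Cadm3, an adhesion molecule of axons, and Rbfox3, the neuronal nuclear protein NeuN (Pearson r = 0.996 for each, among 11099 genes). These r values describe libraries that share tissue makeup. The mean does not stand for all 10 genes, since Mapt correlated with it at -0.87, Kif5c at -0.30 and Kif21b at 0.26. The others lay between 0.89 (Tubb3) and 0.99 (Nefl). Fitted with the neuron markers' mean level as covariate, the callosum log2 fold changes were 0.27 for Nefl, 0.33 for Nefm, 0.33 for Map2, 0.31 for Kif21b, 0.069 for Stmn2, -0.038 for Nefh and -0.036 for Gap43, and 0 of the 10 passed. The neuron markers were themselves above 0 in 9 of 9 tested, with a median log2 fold change of 0.65 and 0 passing. Striatal projection neuron markers were above 0 in 8 of 8 (median 0.85), with 0 passing. Cortical excitatory markers were above 0 in 7 of 8 (median 0.64) and interneuron markers in 7 of 7 (median 0.48), with 0 passing. The mature oligodendrocyte markers were below 0 in 8 of 8, with a median of -0.55 and 0 passing. What part these cell types have in the result was not tested.

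Callosum library names carry either 2-digit or longer numbers, a split whose meaning is not given, and levels differed along it. Nefl averaged 90.7 CPM in the 2 knockout and 46.9 CPM in the 2 wild-type libraries with 2-digit numbers, and 142 CPM in the 4 knockout and 97.8 CPM in the 3 wild-type libraries with longer numbers. Within the 2-digit and the longer numbers the log2 fold change was 0.90 and 0.52 for Nefl, 0.85 and 0.60 for Nefm, 0.63 and 0.60 for Nefh, 0.73 and 0.51 for Map2, and 0.68 and 0.39 for Stmn2. It was 0.64 and 0.35 for Gap43, 0.28 and 0.16 for Tubb3, 0.56 and 0.17 for Kif21b, -0.13 and -0.067 for Mapt, and -0.033 and -0.035 for Kif5c. All 10 thus had the same sign within both formats and 0 passed in either. No optic nerve library had a 2-digit number. The numbers of KO_ON_48038A7 and KO_ON_48118A4 hold a letter, a form found in no wild-type library, and its part in the nerve results was not tested.

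In optic nerve Kif21b and Tubb3 were the 2 of 10 genes whose knockout and wild-type libraries did not overlap, in opposite directions, beside 2.01% of all genes. Kif21b (chr1:136131389-136177998, plus strand, GRCm38) had 107, 102, 109, 91.5 and 88.2 CPM in KO_ON, against 53.7, 62.7, 56.5 and 75.9 CPM in WT_ON. Every knockout library was above every wild-type library, with a log2 fold change of 0.66 ± 0.12 (SE), and edgeR's adjusted p was 0.385. Tubb3 (chr8:123411424-123422015, plus strand, GRCm38) had 108, 74.4, 98.6, 111 and 103 CPM in KO_ON, against 139, 145, 147 and 118 CPM in WT_ON. All 5 knockout libraries were below all 4 wild-type libraries, with a log2 fold change of -0.48 ± 0.12 (SE) and an edgeR adjusted p of 0.662. DESeq2 gave adjusted p = 0.0013 for Kif21b and 0.0458 for Tubb3, so that both passed under that tool and neither under edgeR. Over the left-out libraries the edgeR adjusted p of Kif21b ran from 0.0612, without WT_ON_719857, to 0.994, and that of Tubb3 from 0.453 to 1. Fitted with the neuron markers as covariate, the log2 fold changes were 0.70 for Kif21b and -0.55 for Tubb3. Without KO_ON_719856, the library with photoreceptor markers, the values were 0.69 for Kif21b and -0.50 for Tubb3.

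Neurofilament messages in nerve were low, and none of the 3 passed. Nefl had 17.8, 22.3, 21.4, 21.2 and 26.3 CPM in KO_ON, against 17.3, 13.9, 20.1 and 20.0 CPM in WT_ON, with 4 of 5 knockout libraries above every wild-type library (log2 fold change 0.28 ± 0.14, SE, edgeR adjusted p = 0.845). Nefm had 4.13, 3.25, 4.74, 11.9 and 5.93 CPM in KO_ON, against 3.21, 3.0, 5.52 and 3.76 CPM in WT_ON (log2 fold change 0.62 ± 0.36, SE, edgeR adjusted p = 0.845). The highest value is that of KO_ON_717651, and without it the log2 fold change was 0.20. Nefh had 5.26, 5.91, 4.81, 9.64 and 9.45 CPM in KO_ON, against 4.37, 4.88, 5.84 and 3.27 CPM in WT_ON, with 3 knockout libraries above all wild-type libraries (log2 fold change 0.61 ± 0.26, SE, edgeR adjusted p = 0.845). Without KO_ON_719856 the log2 fold changes were 0.20 for Nefl, 0.61 for Nefm and 0.46 for Nefh. Fitted with the neuron markers as covariate they were 0.14 for Nefl, 0.24 for Nefm and 0.36 for Nefh, and none passed.

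For the other 5 genes in nerve, log2 fold changes lay between -0.087 and 0.075 with adjusted p between 0.923 and 0.98. Mapt averaged 685 ± 49.8 CPM in KO_ON and 649 ± 48.9 CPM in WT_ON, Kif5c 92.4 ± 12.5 and 95.5 ± 11.5, Map2 92.3 ± 21.8 and 94.2 ± 24.9, Gap43 34.4 ± 4.73 and 32.4 ± 7.53, and Stmn2 8.65 ± 3.91 and 9.20 ± 6.62 CPM. Stmn2 was highest in KO_ON_717651 (15.1 CPM) and WT_ON_717652 (18.6 CPM), with neuron marker sums of 219 and 226 CPM, while KO_ON_719856, with the highest sum of 314 CPM, had 6.43 CPM of Stmn2. Over the 10 genes 0 passed in nerve with edgeR, beside 0.0129% of all genes (2 of 15556); 852 genes had an unadjusted p under 0.05 and DESeq2 called 35. The median log2 fold change of the 10 was 0.07, beside 0.012 over all genes tested. The neuron markers were above 0 in 9 of 9 tested, with a median log2 fold change of 0.47 and 0 passing. Among them Slc17a7 averaged 13.5 ± 21.4 CPM in KO_ON and 1.24 ± 1.86 CPM in WT_ON, with an SD above the mean in each group. The highest marker sum was that of KO_ON_719856, the library with photoreceptor markers, and what part retinal RNA has in it was not tested. Most like the mean of the 10 over the 9 nerve libraries were Chd5, Rit2 and Syn1 (Pearson r = 0.949, 0.940 and 0.939, among 10925 genes), given as a description. Chd5 is a chromatin remodeller of neurons, Rit2 a small GTPase of neurons, and Syn1 ties synaptic vesicles together. Of the 10 genes themselves, Tubb3 (-0.10), Kif21b (0.28) and Mapt (0.33) followed that mean least.

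**Figure D3:**
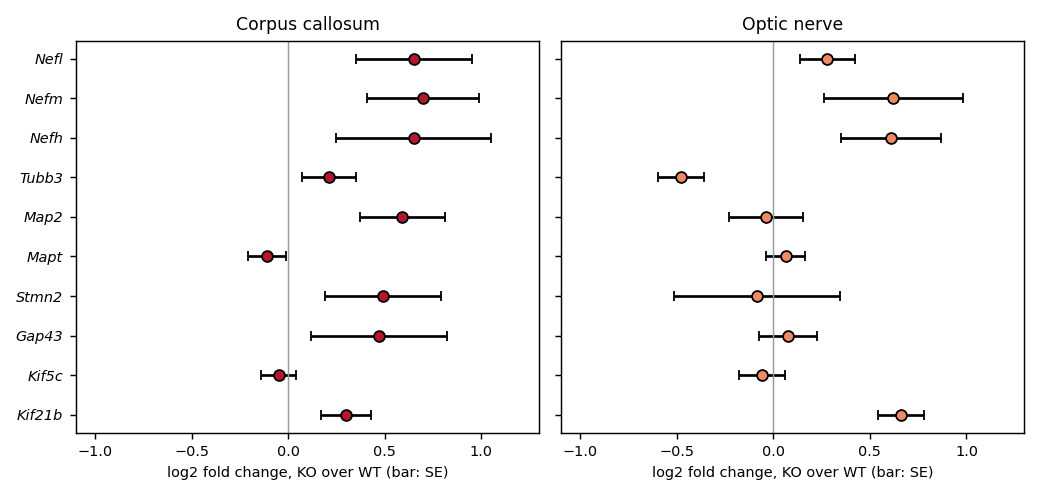
Log2 fold change of knockout over wild type for the 10 genes in corpus callosum (left) and optic nerve (right); points are edgeR estimates and bars the SE. In callosum 8 of 10 lie above 0, while in nerve Kif21b (0.66) and Tubb3 (-0.48) lie farthest from 0 relative to their SE.

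The difference of the knockout effect between the tissues, nerve minus callosum, was largest against its error for Tubb3, at -0.69 ± 0.19 (SE, edgeR adjusted p = 0.725), since its fold change was -0.48 in nerve and 0.21 in callosum. Map2 followed at -0.63 ± 0.31 (adjusted p = 0.729) and Kif21b at 0.37 ± 0.18 (adjusted p = 0.74). None of the 10 passed, and 0% of the 16440 genes did with edgeR, with 1123 at an unadjusted p under 0.05 and 0 with DESeq2. A difference of the knockout effect between the tissues was therefore not shown for these genes.

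Between the tracts themselves the genes were all lower in nerve on average, by widely different amounts. Of the 10 genes 7 fell in optic nerve relative to callosum (adjusted p under 0.05 and a log2 fold change of -1 or below), beside 14.6% of all genes called lower. The motor Kif5c (chr2:49619298-49774778, plus strand) fell by 3.41 on the log2 scale (SE 0.08, edgeR adjusted p = 2.4e-17), to 0.0941 of its callosum level; its 9 nerve libraries lay between 74.7 and 109 CPM and its 11 callosum libraries between 957 and 1182 CPM. Stmn2 fell by 3.69 on the log2 scale (SE 0.31, edgeR adjusted p = 1.8e-09), and Nefm stood at -3.03 on that scale (SE 0.26, edgeR adjusted p = 2.6e-09). For Map2 it was -2.32 (SE 0.17, adjusted p = 1.6e-10), for Nefl -2.24 (SE 0.20, adjusted p = 4.4e-09), for Gap43 -1.67 (SE 0.23, adjusted p = 2.0e-06) and for Kif21b -1.05 (SE 0.09, adjusted p = 4.6e-09). Mapt and Tubb3 were lower by less, with log2 fold changes of -0.33 ± 0.07 and -0.47 ± 0.10 (SE, edgeR adjusted p = 1.9e-04 and 2.1e-04), and Nefh, at -0.98 ± 0.27 (SE, edgeR adjusted p = 0.00334), was just short of the limit on size. The median over the 10 was -1.95, beside -0.012 over all genes tested. Because the genes were chosen with earlier results of these data known, this count and median are a description only. Nerve and callosum libraries did not overlap in 8 of 10 genes, all but Nefh and Tubb3, beside 16.2% of all genes that did not overlap and were lower in nerve.

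Within each genotype the count of genes that fell was also 7 of 10, but the members differed. In knockout mice the share of all genes called lower was 15.2%, and Nefh passed (log2 fold change -1.0) while Kif21b did not reach the limit on size (-0.87). In wild-type mice the share was 13.2%, and Kif21b passed (log2 fold change -1.24) while Nefh did not (-0.96, edgeR adjusted p = 0.0552). Nefh thus lay at the limit: its knockout call was lost, at -0.88 to -1.0, without KO_CCg_693451, KO_CCg_693452, KO_CCg_719856, KO_ON_48038A7, KO_ON_48118A4, KO_ON_693452 or WT_ON_700858. Averaged over genotypes it passed, at -1.01 to -1.08, without KO_CCg_27, KO_CCg_29, WT_CCg_28, WT_CCg_30, WT_CCg_717652, KO_ON_717651, KO_ON_719856 or WT_ON_717652, and in wild type without WT_CCg_28 (-1.14). With longer-number callosum libraries only, Nefh passed over both genotypes and in wild type (-1.27 for each). Tubb3 differed between nerve and callosum by a log2 fold change of -0.81 in knockout mice and by -0.12 (edgeR adjusted p = 0.495) in wild-type mice. The test of that difference between genotypes is the one given above for the knockout effect between tissues and was not passed.

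The neuron markers fell in nerve in 9 of 9 tested, beside 14.6% of all genes called lower, and they had a median log2 fold change of -4.39. Rbfox3 averaged 2.80 ± 1.21 CPM in KO_ON and 2.17 ± 1.84 CPM in WT_ON, and 114 ± 36.6 CPM in KO_CCg and 68.5 ± 30.9 CPM in WT_CCg. Cortical excitatory markers summed to 29.6 to 96.1 CPM in KO_ON and 32.9 to 50.1 CPM in WT_ON, and to 240.3 to 1485 CPM in KO_CCg and 243 to 944 CPM in WT_CCg, with Neurod6 and Tbr1 averaging under 1 CPM in both nerve groups. Striatal projection neuron markers summed to 71.0 to 94.4 CPM in KO_ON and 63.9 to 97.8 CPM in WT_ON, and to 576 to 1530 CPM in KO_CCg and 323 to 753 CPM in WT_CCg. Other cell types also differed between the tracts, and their counts stand beside 14.2% of all genes called higher in nerve. Fibroblast and meninges markers rose in nerve in 6 of 6, with a median log2 fold change of 6.19 and sums of 2964 to 4834 CPM in KO_ON and 2538 to 4537 CPM in WT_ON, against 34.2 to 91.3 CPM in KO_CCg and 36.9 to 87.7 CPM in WT_CCg. Microglia markers rose in 4 of 6 (median 1.33) and astrocyte markers in 3 of 6, with 1 lower (median 0.69), Gfap among those that rose (3.26). What part these cell types have in the tissue difference of the axonal genes was not tested.

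The ratios between the 3 neurofilament chains were looked at after the levels were seen; they restate the unequal fold changes above and are given as a description. The ratio of Nefh to Nefm in CPM was 0.810 to 1.82 over the 9 nerve libraries (mean 1.27 ± 0.357, SD) and 0.126 to 0.395 over the 11 callosum libraries (mean 0.278 ± 0.0701, SD), with no overlap. For Nefh to Nefl it was 0.164 to 0.455 in nerve and 0.0544 to 0.139 in callosum, also without overlap. For Nefl to Nefm it was 1.78 to 6.85 in nerve and 2.03 to 2.84 in callosum, with overlap. Behind the nerve values stand 75.0 to 233 estimated counts of Nefm and 73.0 to 189 of Nefh per library, and 4 library numbers recur in both tissues, without a label that says whether they name the same animal.

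**Figure D4:**
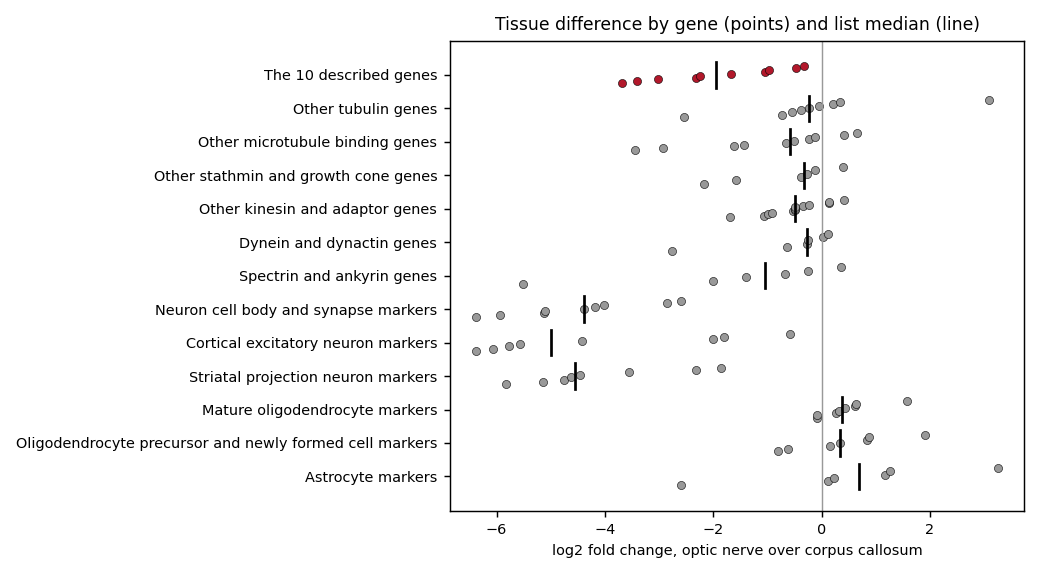
Log2 fold change of optic nerve over corpus callosum for the 10 genes (red) and for other lists (grey), 1 point a gene, with the list median as a black line. The median of the 10 genes (-1.95) lies between that of the neuron markers (-4.39) and those of the 6 other cytoskeletal lists (-1.04 to -0.23). Single genes overlap both sides: Mapt (-0.33) and Tubb3 (-0.47) lie within the range of those list medians. Stmn2 (-3.69) and Kif5c (-3.41) lie below the neuron markers Syn1 (-2.85) and Eno2 (-2.59).

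Other genes of the axonal cytoskeleton were taken as lists, and their counts stand beside 14.6% of all genes called lower and 14.2% called higher in nerve, so that shares near these are no result about a list. Ina, a further neurofilament chain of the brain, followed the 3 chains, at 14 ± 3.08 CPM in KO_ON, 10.8 ± 4.00 CPM in WT_ON, 99.1 ± 37.1 CPM in KO_CCg and 65.4 ± 28.6 CPM in WT_CCg, and was the 1 of 2 listed filament genes that fell in nerve (log2 fold change -2.63). Of 9 other tubulin genes 1 fell, Tuba4a (-2.55), and 1 rose, Tubb6 (3.09). Among 10 other microtubule binding genes 4 fell, namely Crmp1 (-2.93), Dcx, which marks immature neurons (-3.44), Map1b (-1.61) and Dclk1 (-1.43). Of 6 other stathmin and growth cone genes 2 fell, Stmn3 (-2.18) and Basp1 (-1.59).

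Of 13 other kinesin and adaptor genes 2 fell in nerve, near the share over all genes, Kif5a (-1.69) and Kif1a (-1.06). Kif5a, a close relative of Kif5c, had 2802 ± 452 CPM in KO_ON, 2358 ± 640.1 CPM in WT_ON, 7898 ± 1337 CPM in KO_CCg and 9622 ± 683 CPM in WT_CCg. Dync1i1, an intermediate chain of the dynein motor that runs towards the cell body, was the 1 of 6 dynein and dynactin genes that fell (-2.77), again near that share. Spectrins and ankyrins, the membrane lattice of the axon, had 3 of 6 lower, among them Sptbn4 (-2.01) and Ank3 (-1.40). In the knockout comparisons 0 genes of these 7 lists passed in either tissue, with list medians of the log2 fold change from -0.16 to 0.43 in callosum and from -0.07 to 0.49 in nerve. The smallest p among them in callosum was that of Map4, at 1080 ± 134 CPM in KO_CCg and 1393 ± 141 CPM in WT_CCg (log2 fold change -0.42 ± 0.12, SE, edgeR adjusted p = 0.297). In nerve it was that of Klc2, a kinesin light chain, at 58.7 ± 6.53 CPM in KO_ON and 49.1 ± 3.33 CPM in WT_ON (log2 fold change 0.25 ± 0.09, SE, edgeR adjusted p = 0.845).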

How the data were processed

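Messenger RNA was sequenced with a stranded kit, per the labels' protocols. The authors deposited 1 table of estimated counts per gene (expected counts, not scaled to a common total), whose name gives kallisto as the quantifier; mm10 is named as the build in the submitters' processing notes, and the sources used here give no versions, transcript annotation or strand setting. Samples were grouped by tissue and genotype as labelled. Estimated counts were rounded, filtered by filterByExpr (at least 10 counts, 15 in total) and scaled with TMM. The edgeR 4.0.16 quasi-likelihood test (R 4.3.3) was fitted over all genes, each tissue apart for the knockout effect and all 4 groups together for the comparisons of tissues. Calls needed a Benjamini-Hochberg adjusted p under 0.05, and between tissues also a log2 fold change of 1 or more in size. SE is the log2 fold change divided by the root of its F statistic. CPM values use the library total, and CPM per kb the union of exons of an annotation on GRCm38, matched by gene ID without its version. The columns name every sample, and 0 columns were left unused. The log2 CPM of the similar-gene search and of the covariate used a prior count of 2. Precision follows from the counts per library; only counting error and the spread between libraries are covered.

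The members and gene lists were chosen with earlier results of these data known. All 10 genes were named; of other lists, at most 4 that passed with the smallest p, otherwise the 1 with the smallest p. Some genes that this selects are not reported here. Alternatives were DESeq2 1.42.0 and its size factors, no filter, a joint fit, number format or neuron markers as a covariate, subsets by format, a replicate block (also with limma 3.58.1) and leaving out each library. The fits were also run on simulated counts, and the outcome is not reported here. How often effects of the size seen here would pass is therefore not given. The neuron covariate in nerve, the ratios of neurofilament genes and the shared-number libraries without a block were added after the data were seen.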

Additional observations from a re-analysis of the deposited data

Results flagged for a closer look

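Among 40 groups of libraries (10 genes in 4 groups), 2 held a library whose gap to its nearest neighbour was large for the group's range; chance flags about 1 in 20 groups. Map2 stood at 131 CPM in KO_ON_717651, against 77.9 to 86.2 CPM in the other 4 knockout nerve libraries. The wild-type nerve library WT_ON_717652 had a like level of Map2, 129 CPM. Mapt stood at 722 CPM in WT_ON_719857, against 620.0 to 628 CPM in the other 3 wild-type nerve libraries.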

How the results depend on the processing

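In callosum, 6 genes were called over all genes, 41 in a joint fit of the 4 groups, 175 with DESeq2, 10 with number format as a covariate, 2 with longer numbers only and 0 with 2-digit numbers only; leaving out 1 library gave 2 to 41, with 41 without WT_CCg_685232, 3 without KO_CCg_27 or KO_CCg_29 and 2 without any of 6 others (KO_CCg_693451, KO_CCg_719856, WT_CCg_28, WT_CCg_30, WT_CCg_717652 and WT_CCg_7198587). None of these settings called any of the 10 genes there. In nerve DESeq2 called 35 genes in place of 2, and 2 of the 10 genes (Kif21b and Tubb3) in place of 0. For the tissue difference of the knockout effect, leaving out 1 library gave 0 to 1 genes, 1 of them without KO_ON_717651. Directions turned in callosum with the neuron markers as covariate, for Nefh (-0.038) and Gap43 (-0.036), and for the difference between tissues with longer-number callosum libraries only, for Nefm (0.012) and Nefh (0.0031); the cause was not tested. Over the left-out libraries the callosum log2 fold change spanned 0.48 to 0.84 for Nefl, 0.52 to 0.89 for Nefm, 0.48 to 0.91 for Nefh, 0.49 to 0.72 for Map2, 0.35 to 0.68 for Stmn2, 0.29 to 0.69 for Gap43, 0.14 to 0.32 for Tubb3 and 0.22 to 0.38 for Kif21b. The nerve log2 fold change spanned -0.21 to 0.13 for Map2, -0.39 to 0.49 for Stmn2, -0.027 to 0.20 for Gap43 and -0.14 to 0.014 for Kif5c, and the difference between tissues -0.48 to 0.12 for Nefm, -0.28 to 0.14 for Nefh, -0.86 to 0.007 for Stmn2 and -0.085 to 0.063 for Kif5c. In the labels 4 numbers recur in both tissues. Deviations of same-numbered libraries from their group means correlated at 0.0178, -0.153, 0.134 and -0.0532. These values cannot show whether a number names the same animal, because each tissue piece also varies in its makeup. The main fits left same-numbered libraries unpaired. With the replicate block the 8 such libraries gave 4261 genes called between tissues and 4313 without it, and a consensus correlation (-0.112) over all libraries gave 4737; under it Nefh was not called in knockout (-0.93, adjusted p = 0.0524, limma), which left 6 of the 10 genes called there. Tissue contrasts called 7 of the 10 genes in each genotype and 6 to 8 over all left-out libraries; with longer-number callosum libraries only they called 8 over both genotypes and in wild type. The neurofilament ratios kept their direction in all 20 left-out settings. For Nefh to Nefm and Nefh to Nefl this was fixed in advance, since their nerve and callosum libraries do not overlap.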
